A study of Mus musculus with 61 samples.

Results

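The 10 genes described here encode G-protein-coupled receptors that tune hormone release from pancreatic islets: Ffar1, Gpr119, Glp1r, Gipr, Gcgr, Adra2a, Galr1, Sstr1, Sstr2 and Sstr3. All 10 were among the 46078 genes of the count table, and all 10 were among the 24004 genes that passed the detection filter and were tested.

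Organoids grown from pancreatic ducts of C57BL/6 mice were infected with doxycycline-inducible lentiviruses carrying GFP-Ngn3, LSSOrange-Pdx1 and tdTomato-MafA, and cells were sorted by colour in pools of 50 after 8 days of induction. The Ngn3 vector was either wild-type (WT) or 6SA, a phospho-mutant with alanine in place of serines targeted by cyclin-dependent kinases. Each kind of culture gave cells with Pdx1, MafA, Pdx1-MafA, Ngn3-Pdx1, Ngn3-MafA or Ngn3-Pdx1-MafA, which made 12 conditions. After libraries under 1000000 gene counts were left out and repeat pools of the same replicate were summed, 32 samples remained, 17 with Ngn3 and 15 without, at 2579583 to 19461008 gene counts each. WT Pdx1, 6SA Pdx1, WT MafA and 6SA Ngn3-Pdx1-MafA had 2 samples, and each of the other 8 conditions had 3. All cells, the Ngn3-negative ones included, carried the doxycycline-dependent transactivator, received doxycycline and came from cultures exposed to an Ngn3 vector; uninfected cells were not analysed here. Replicates 1 and 2 were at passage 2 and replicate 3 at passage 5, and the labels do not say whether replicates came from separate animals, so p-values measure the spread between these samples. A level is given below in CPM (counts divided by the library total and set to 1000000), scaled by edgeR's TMM factors. The limit that a count of 0 allows, 3 counts, stood at 0.136 to 1.01 CPM across the samples, and it covers counting error only.

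These receptors sit on endocrine cells and set how much hormone is released in response to nutrients, gut hormones, nerves and neighbouring cells. GLP-1, GIP and glucagon receptors and Gpr119 couple to Gs and raise cyclic AMP, which amplifies secretion, whereas Ffar1 couples mainly to Gq and acts through phospholipase C and calcium. The alpha-2A adrenergic, galanin and somatostatin receptors couple to Gi/o, lower cyclic AMP and open potassium channels, which restrains secretion.

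The sequences just upstream of a few receptor genes are shown first, because most of the receptors changed with Ngn3, a basic helix-loop-helix factor that binds E-boxes. RefSeq promoter windows, from 250 bases before to 50 bases after the start (GRCm38.p6), were found for 7 of the 10 receptors, with a pair of entries for Sstr3. The motifs of the expressed factors were searched on both strands: CAGATG, an E-box form (CANNTG) bound by Ngn3; TAATTA, a core bound by homeodomain factors such as Pdx1; and TGCTGA, the MARE half-site of Maf factors. The runs below hold only bases upstream of both the RefSeq start and the annotated gene. They are those of Ffar1, seen in every combination with Ngn3 (minus strand, chr7:30861565-30861720), of Gpr119, near 0 when all 3 factors were present (minus strand, chrX:48674479-48674728), and of Sstr2, the receptor detected in every sample (plus strand, chr11:113619077-113619326). Capitals mark a match to any of these motifs other than the general E-box.
Ffar1: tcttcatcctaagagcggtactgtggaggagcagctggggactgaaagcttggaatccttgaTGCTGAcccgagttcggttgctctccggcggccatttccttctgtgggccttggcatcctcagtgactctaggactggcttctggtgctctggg
Gpr119: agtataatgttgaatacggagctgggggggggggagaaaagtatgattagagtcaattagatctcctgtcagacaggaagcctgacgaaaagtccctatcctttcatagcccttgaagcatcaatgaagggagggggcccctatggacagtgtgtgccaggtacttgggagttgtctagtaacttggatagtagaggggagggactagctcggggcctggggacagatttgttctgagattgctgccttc
Sstr2: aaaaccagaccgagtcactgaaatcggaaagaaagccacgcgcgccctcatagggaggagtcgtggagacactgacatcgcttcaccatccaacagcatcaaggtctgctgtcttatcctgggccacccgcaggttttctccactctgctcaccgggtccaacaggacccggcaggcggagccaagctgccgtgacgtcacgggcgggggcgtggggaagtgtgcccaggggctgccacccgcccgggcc

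The Ffar1 window held TGCTGA at base -188 from the RefSeq start, and CAGATG at base -59. The latter lies in a stretch annotated as exon, which is not printed. The windows of Gpr119, Sstr2 and Gcgr held none of the motifs, CANNTG included. Those of Glp1r and Adra2a held 1 CANNTG each and none of the other motifs. For Sstr3, the first entry held 4 CANNTG matches, among them a CAGATG at base 30, and the other entry held TGCTGA at base -1. Whether any of these sequences takes part in the response to Ngn3 was not tested. Among all 32851 promoter windows of the same length, CANNTG occurred in 72.3%, CAGATG in 17.2%, TAATTA in 5.29% and TGCTGA in 19.5%. A CAGATG is itself one of the CANNTG matches. A match is a run of letters and not a measured binding site.

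The labels were checked on the expressed factors and on cell type markers. Neurog3, the gene encoding Ngn3, stood at 7.87 to 329 CPM in the 17 samples with Ngn3 and at 0 to 0.788 CPM in the 15 without. Pdx1 stood at 9.84 to 191 CPM with the Pdx1 vector and at 3.21 to 30.6 CPM without it. Mafa stood at 0 to 12.7 CPM with the MafA vector and at 0 to 0.116 CPM without it, and 6SA Pdx1-MafA replicate 3 had no Mafa count. The counts do not separate vector from endogenous transcripts. All 12 duct markers were detected, with summed levels of 15568 to 65783 CPM without Ngn3 and 2067 to 21338 CPM with it. The 17 endocrine markers summed to 2.37 to 60.4 CPM without Ngn3 and to 1437 to 39690 CPM with it. Ins1 and Ins2 were at 0 in all samples without Ngn3. With Ngn3, Ins1 was at 0 in 10, Ins2 in 13, Gcg in 12 and Ppy in 10 of the 17 samples. Acinar markers summed to at most 17.1 CPM without and 49.7 CPM with Ngn3, mesenchymal markers to 108 and 399 CPM, endothelial markers to 7.56 and 45.3 CPM and immune markers to 28.1 and 44.3 CPM. The part of those cell types in the results was not tested, and in pools of cells a change in how many cells express a receptor cannot be told apart from a change in transcript per cell.

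Of the 10 receptors, 8 were higher in cells with Ngn3, by the comparison of the 6 conditions with Ngn3 against the 6 without (edgeR quasi-likelihood test, Benjamini-Hochberg adjusted p under 0.05). The 2 others, Glp1r and Gcgr, could not be fitted in this comparison, because conditions without a single count stood on both sides. Over all genes tested, 21.5% were called and 11.1% were called higher. The median fitted log2 fold change of the 8 receptors was 6.11, beside 0.02 for all genes that could be fitted. Among the receptors, 5 differed somewhere among the 12 conditions: Ffar1, Gpr119, Sstr1, Sstr2 and Galr1, against 7.20% of all genes in that test. Fitted fold changes of receptors without counts in the Ngn3-negative cells depend on the model's prior, and are therefore given with a bound set by 3 counts over the 15 samples.

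**Figure D1:**
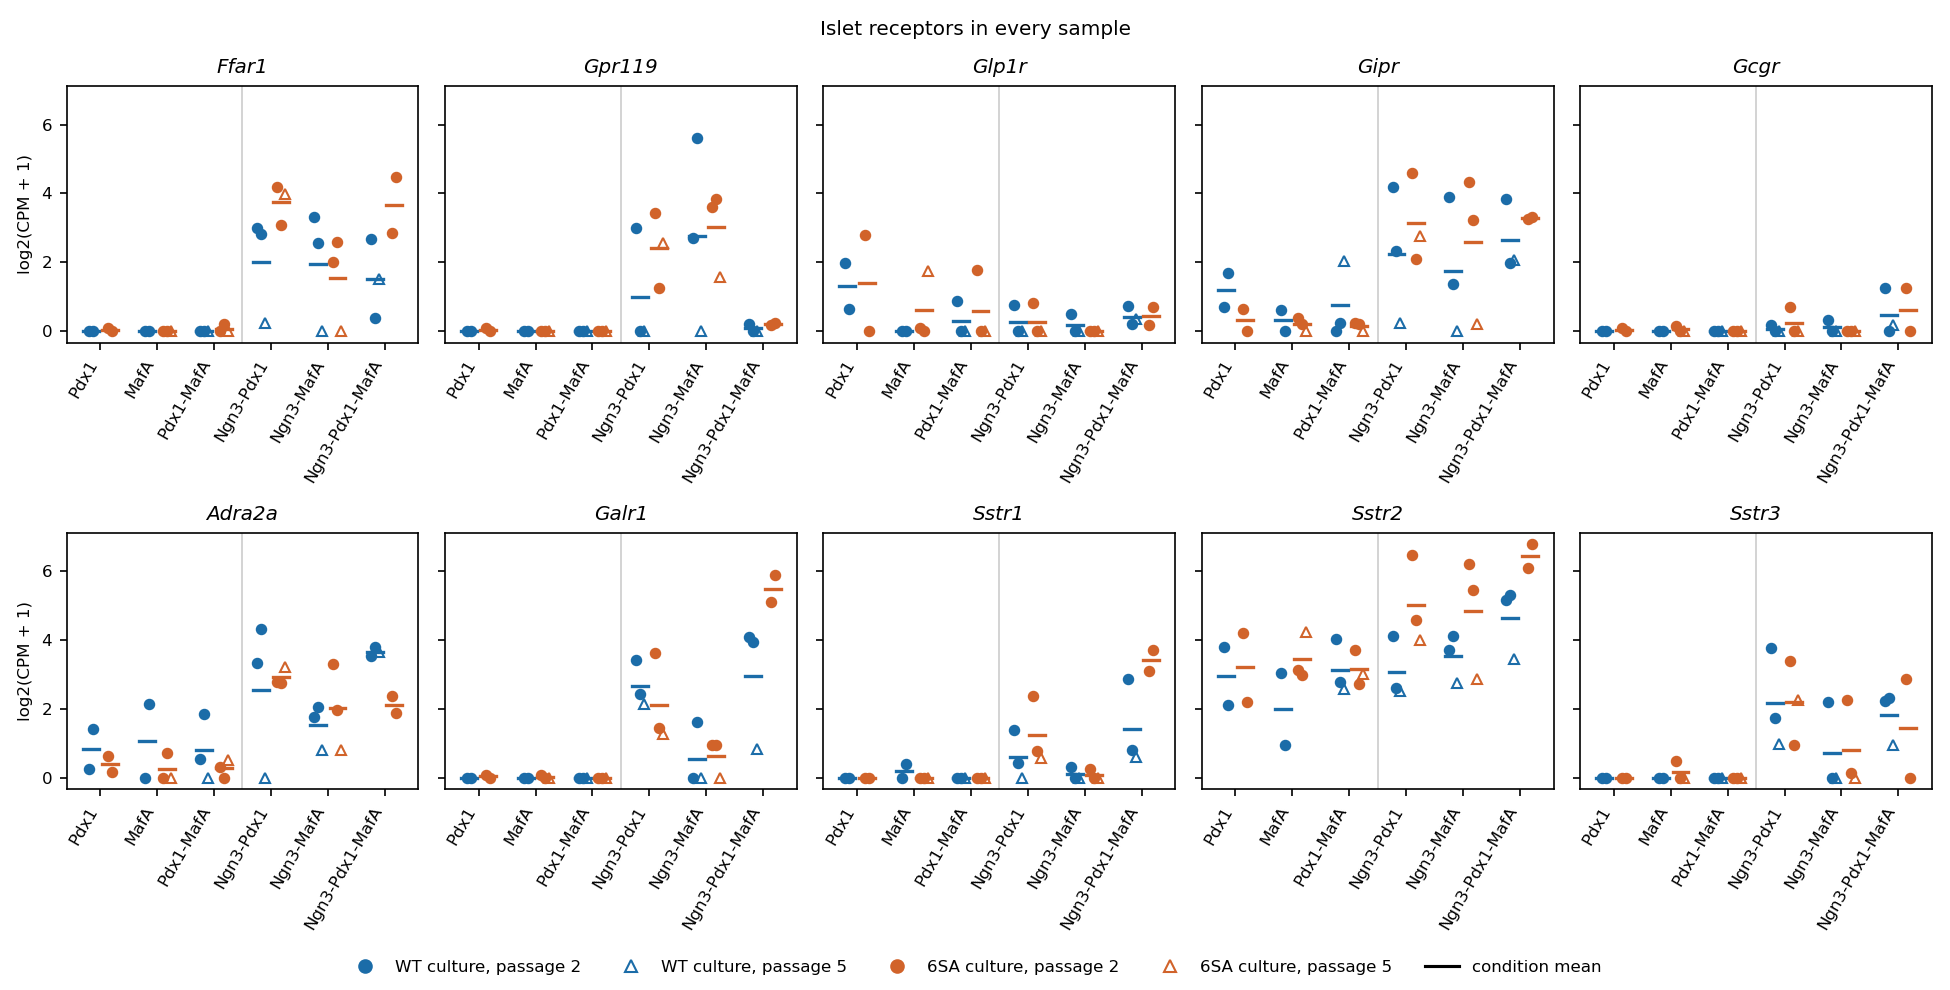
Level of each receptor in all 32 samples, as log2(CPM + 1), with the 6 factor combinations on the x axis, WT cultures in blue, 6SA cultures in orange, circles for passage 2, triangles for passage 5 and bars for the condition mean of the plotted values. The grey line separates samples without Ngn3 (left) from those with it (right); Ffar1, Gpr119 and Galr1 lie at or next to 0 in every sample left of the line, and Sstr2 lies above 0 in every sample.

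Ffar1, the receptor for long-chain fatty acids, was close to absent without Ngn3: its highest Ngn3-negative sample had 0.145 CPM, which was 1 read. With Ngn3 and Pdx1 it stood at 6.93, 6.07 and 0.164 CPM in WT replicates 1, 2 and 3, and at 17.3, 7.44 and 14.8 CPM in the 6SA ones. With Ngn3 and MafA it stood at 8.87, 4.83 and 0 CPM in WT and at 3.05, 4.98 and 0 CPM in 6SA. With all 3 factors it stood at 5.35, 0.293 and 1.86 CPM in WT and at 6.17 and 21.2 CPM in 6SA. Thus 13 of the 17 samples with Ngn3 had more than 3 reads, and none of the 15 without. The 4 others, with 0 to 2 reads, were not separated from the Ngn3-negative samples at this depth: WT Ngn3-Pdx1-MafA replicate 2 and the passage 5 samples of WT Ngn3-Pdx1 and of WT and 6SA Ngn3-MafA. The mean was 6.43 ± 6.18 CPM (SD, n = 17) against 0.0134 ± 0.0390 CPM (SD, n = 15), at least 14.9-fold higher, with a fitted log2 fold change of 8.08 ± 1.04 (SE, adjusted p = 5.1e-06). Ffar1 was called by edgeR in each background taken alone. The log2 fold change was 8.27 ± 1.87 (adjusted p = 0.0226) when Ngn3 joined Pdx1. It was 8.11 ± 1.90 (adjusted p = 0.0130) when Ngn3 joined MafA and 7.86 ± 1.55 (adjusted p = 0.00112) when it joined both. The calls with Pdx1 and with MafA depended on single samples without Ngn3. Limma did not call Ffar1 when Ngn3 joined MafA (adjusted p = 0.0922).

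Gpr119, a Gs-coupled receptor for fatty acid amides such as oleoylethanolamide, had 1 read in all 15 Ngn3-negative samples together. It stood at 5.48, 47.9 and 0 CPM in WT Ngn3-MafA and at 11.1, 13.4 and 1.99 CPM in 6SA Ngn3-MafA. In WT Ngn3-Pdx1 it stood at 6.93, 0 and 0 CPM, and in 6SA Ngn3-Pdx1 at 9.70, 1.40 and 4.93 CPM. In contrast, the 5 samples with all 3 factors had 0 to 0.174 CPM, which was never more than 2 reads. Of the 6 Ngn3-MafA samples, 5 lay above all 5 samples with all 3 factors, and WT replicate 3 at 0 was the exception. Across backgrounds Gpr119 averaged 6.08 ± 11.6 CPM with Ngn3 (SD, n = 17), which exceeded the level without it by a factor of at least 14.1, or 8.04 without WT Ngn3-MafA replicate 2 (log2 fold change 6.77 ± 1.21, adjusted p = 3.2e-04). Within backgrounds it was called when Ngn3 joined MafA (log2 fold change 9.94 ± 2.21, adjusted p = 0.0101), but not when it joined Pdx1 (7.20 ± 2.05, adjusted p = 0.0955) or both (3.16 ± 1.84, adjusted p = 0.256). For Pdx1, edgeR called it with a replicate block (adjusted p = 0.0166) and at passage 2 alone (adjusted p = 0.0147). It was also called there without the gene filter (adjusted p = 5.1e-05). For both it was called in none of the other settings.

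Glp1r, the GLP-1 receptor of beta cells, was the receptor that did not lie above the Ngn3-negative samples in any Ngn3 sample. Its highest levels were in Ngn3-negative cells, at 5.94 CPM (106 reads) in 6SA Pdx1 replicate 1, 2.97 CPM in WT Pdx1 replicate 1, 2.41 CPM in 6SA Pdx1-MafA replicate 1 and 2.37 CPM in 6SA MafA replicate 3, while 8 of the 15 samples had no read. With Ngn3 it reached at most 0.770 CPM (17 reads), and 9 of 17 samples had none. The means, 0.216 ± 0.290 CPM with Ngn3 (SD, n = 17) and 1.01 ± 1.72 CPM without (SD, n = 15), differed by less than the spread between samples without Ngn3. Limma on log2(CPM + 1), which was added after seeing the data because it can be fitted where conditions are at 0, gave a log2 difference of -0.44 ± 0.24 (adjusted p = 0.209). When Ngn3 joined Pdx1, edgeR gave a log2 fold change of -3.00 ± 1.62 (adjusted p = 0.480).

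Gipr, the receptor for the gut hormone GIP, was detected at low level in part of the Ngn3-negative samples, with a median of 0.174 CPM and a highest value of 3.13 CPM in WT Pdx1-MafA replicate 3. With Ngn3 the lowest, median and highest values were 0, 5.73 and 23.2 CPM, and 12 of 17 samples lay above every Ngn3-negative one. The means of 7.86 ± 7.18 CPM (SD, n = 17) and 0.536 ± 0.913 CPM (SD, n = 15) gave a 14.7-fold difference (22.4-fold without WT Pdx1-MafA replicate 3) and a log2 fold change of 4.27 ± 0.82 (adjusted p = 2.8e-04). The 3 combinations with Ngn3 had similar means, 8.95 ± 9.12 CPM with Pdx1 (SD, n = 6), 7.17 ± 8.00 CPM with MafA (SD, n = 6) and 7.38 ± 4.38 CPM with both (SD, n = 5). Adding MafA to Ngn3-Pdx1 gave -0.23 ± 1.13 (adjusted p = 1.000), and adding Pdx1 to Ngn3-MafA gave 0.12 ± 1.12 (adjusted p = 1.000) (± SE).

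Gcgr, the glucagon receptor, was the rarest of the 10 in number of samples: 3 of the 17 samples with Ngn3 and none of the 15 without had more than 3 reads. These were replicate 1 of WT Ngn3-Pdx1-MafA (1.38 CPM, 17 reads), of 6SA Ngn3-Pdx1-MafA (1.36 CPM, 20 reads) and of 6SA Ngn3-Pdx1 (0.634 CPM, 14 reads). Over all backgrounds limma gave a log2 difference of 0.23 ± 0.11 (adjusted p = 0.139). In the background of Pdx1 and MafA edgeR called Gcgr (0.573 ± 0.726 CPM, SD, n = 5, against 0 in 6 samples, at least 1.6-fold higher, log2 fold change 5.56 ± 1.69, adjusted p = 0.0275), but the call was lost in 7 of 20 other settings. It was lost without either of the replicate 1 samples with all 3 factors, and at passage 2 alone (adjusted p = 0.0814), and without those samples in turn the bound was 1.04-fold and 1.05-fold.

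Among the inhibitory receptors, Adra2a, the alpha-2A adrenergic receptor through which noradrenaline restrains insulin release, had more than 3 reads in 16 of 17 samples with Ngn3. The exception was WT Ngn3-Pdx1 replicate 3, at 0. With Ngn3 the lowest, median and highest values were 0, 5.70 and 18.9 CPM, and without it 0, 0.236 and 3.39 CPM, with 10 samples with Ngn3 above all without. The 9.31-fold difference between the means of 6.40 ± 5.14 CPM (SD, n = 17) and 0.687 ± 1.05 CPM (SD, n = 15) gave a log2 fold change of 3.29 ± 0.73 (adjusted p = 0.00124). In WT Ngn3-Pdx1-MafA the 3 samples were close together, at 10.5, 13 and 11.6 CPM, and above the 6SA samples at 4.14 and 2.69 CPM, but no receptor was called between WT and 6SA Ngn3.

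Galr1, a galanin receptor that couples to Gi, differed in level between the factor combinations. Without Ngn3 no sample had more than 1 read. With Ngn3 and MafA it stood at 0, 2.09 and 0 CPM in WT and at 0.916, 0.934 and 0 CPM in 6SA. With Ngn3 and Pdx1 it stood at 9.77, 4.38 and 3.44 CPM in WT and at 11.3, 1.74 and 1.43 CPM in 6SA. With all 3 factors it stood at 16, 14.3 and 0.798 CPM in WT and at 33.2 and 58.0 CPM in 6SA, the highest values of the receptor. It was above all Ngn3-negative samples in 14 of 17 samples with Ngn3. Its mean, 9.32 ± 15.2 CPM (SD, n = 17), exceeded that without Ngn3 by a factor of at least 21.6 (log2 fold change 7.77 ± 0.95, adjusted p = 2.5e-06). Galr1 was called when Ngn3 joined Pdx1 (7.77 ± 1.69, adjusted p = 0.0174) and when it joined both factors (10.73 ± 1.55, adjusted p = 5.3e-05), and not when it joined MafA (4.80 ± 1.67, adjusted p = 0.118). When Ngn3 joined MafA, Galr1 was called by DESeq2 (adjusted p = 0.0494), at a mean of 0.656 CPM. EdgeR called it there at passage 2 alone (adjusted p = 0.0488) and with a replicate block (adjusted p = 0.0343). Without the gene filter it was called as well (adjusted p = 0.00528).

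The 3 somatostatin receptors differed in level and in pattern. Sstr2, the subtype through which somatostatin chiefly restrains glucagon release, was detected in all 32 samples, at 0.925 to 17.7 CPM without Ngn3 and at 4.76 to 109 CPM with it. The ranges overlapped, and 8 of 17 samples with Ngn3 lay above all without. The 3.89-fold difference between 33.4 ± 32.3 CPM (SD, n = 17) and 8.59 ± 5.26 CPM (SD, n = 15) was called (log2 fold change 1.75 ± 0.38, adjusted p = 0.00116). It was the smallest fold among the 8 receptors called. Per kilobase of exon, Sstr2 averaged 15.6 CPM with Ngn3, ahead of Galr1 at 3.12, Gpr119 at 2.68, Gipr at 2.26, Ffar1 at 1.54, Adra2a at 1.32, Sstr1 at 1.01 and Sstr3 at 0.713 CPM. The order is one of means, since the values of these receptors, Sstr2 included, overlapped between samples.

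Sstr1 followed the pattern of Galr1 at lower levels. It had 1 read among the Ngn3-negative samples and at most 3 reads in any Ngn3-MafA sample. In Ngn3-Pdx1 it stood at 1.59, 0.337 and 0 CPM in WT and at 4.17, 0.698 and 0.477 CPM in 6SA, and with all 3 factors at 6.24, 0.732 and 0.532 CPM in WT and at 7.60 and 12.2 CPM in 6SA. Over all backgrounds it was at least 4.78-fold higher with Ngn3 (2.06 ± 3.50 CPM, SD, n = 17, log2 fold change 5.45 ± 0.97, adjusted p = 3.2e-04). Sstr3, known for its place on primary cilia, was at 0 in 14 of 15 Ngn3-negative samples and had 7 reads (0.403 CPM) in 6SA MafA replicate 1. With Ngn3 the lowest, median and highest values of Sstr3 over the 6 Ngn3-Pdx1 samples were 0.930, 3.09 and 12.5 CPM, and 12 of 17 samples with Ngn3 had more than 3 reads. Its mean was 3.08 ± 3.56 CPM (SD, n = 17) against 0.0269 ± 0.104 CPM (SD, n = 15), with a log2 fold change of 7.07 ± 1.25 (adjusted p = 2.5e-04), and the level without Ngn3 rests on those 7 reads.

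The receptors called were also counted in each background, and these counts moved with the processing. DESeq2 called 5, 4 and 7 receptors when Ngn3 joined Pdx1, MafA and both, with no adjusted p for Gcgr. Of all 23962 genes it called 911, 1928 and 5149. EdgeR at passage 2 alone called 5, 5 and 7 receptors, and 696, 1115 and 3904 of 24004 genes. In edgeR over all samples, 2 of 10 receptors were called when Ngn3 joined Pdx1, Ffar1 and Galr1, both higher, where 1.49% of all genes were called and 1.32% called higher. When it joined MafA, 2 of the 8 that could be fitted were called, Ffar1 and Gpr119, both higher, where 4.67% of genes were called and 2.50% called higher. When it joined Pdx1 and MafA, 8 of 10 were called, all higher, where 17.8% were called and 9.42% called higher; Glp1r and Gpr119 were the exceptions. In that background Galr1 stood at 24.5 ± 22 CPM (SD, n = 5) against 0 in all 6 samples, at least 68.2-fold higher (44.9-fold without 6SA Ngn3-Pdx1-MafA replicate 2). Sstr1 stood at 5.47 ± 4.94 CPM (SD, n = 5) against 0, at least 15.2-fold higher (log2 fold change 8.61 ± 1.62, adjusted p = 9.7e-04). Sstr3 stood at 2.98 ± 2.53 CPM (SD, n = 5) against 0, at least 8.31-fold higher (7.88 ± 1.98, adjusted p = 0.00828). The calls of Gipr (4.31 ± 1.29, adjusted p = 0.0206), Adra2a (3.71 ± 1.17, adjusted p = 0.0269) and Sstr2 (2.53 ± 0.64, adjusted p = 0.00588) completed the set. The call of Gipr was lost in 3 and that of Adra2a in 5 of 21 other settings, each time with 1 sample left out. The call of Sstr3 was lost without 6SA Ngn3-Pdx1-MafA replicate 1. The counts of all receptors called without single samples are given in the closing section. All genes together moved by a median of 0.05 in this background, and by 0.17 when scaled by size factors in place of TMM, a shift small beside these values.

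**Figure D2:**
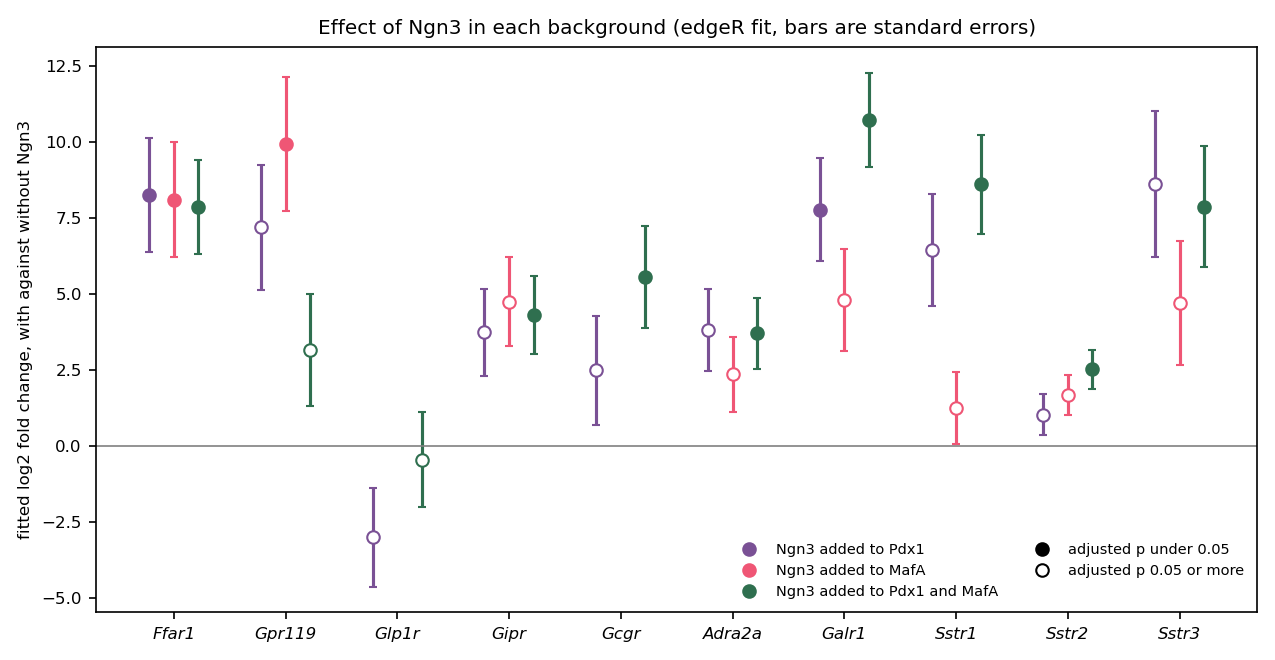
Fitted log2 fold change of each receptor with against without Ngn3 in the backgrounds of Pdx1 (purple), MafA (pink) and both (green), from edgeR, with bars for the standard error and filled circles for adjusted p under 0.05. Ffar1 is filled in all 3 backgrounds, Galr1 is at 4.80 with MafA and at 10.73 with both, Gpr119 is at 9.94 with MafA and at 3.16 with both, and Glp1r and Gcgr have no point with MafA because they could not be fitted.

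Whether the Ngn3 effect itself differed between backgrounds was tested by its interaction with background, which called 0.0333% of all genes. Gipr, Adra2a and Sstr2 had counts in all 12 conditions and could be fitted, and none of the 3 was called by edgeR or DESeq2 (adjusted p = 1.000, 1.000 and 0.962 in edgeR, with no unadjusted p under 0.05). For the other 7 receptors edgeR could not fit the interaction in full, so by edgeR the patterns above are levels set side by side. DESeq2 did not call Galr1 (adjusted p = 0.379), Sstr1 (adjusted p = 0.284) or Gpr119 (adjusted p = 0.770). Limma, which was added later, called Galr1 and Sstr1 (adjusted p = 0.0324 for each) and did not call Gpr119 (adjusted p = 0.382).

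The step from a pair of factors to all 3 can be compared directly among cells with Ngn3. Adding Pdx1 to Ngn3-MafA changed 3 receptors, where 2.72% of all genes were called. Galr1 was 37.3-fold higher, or 24.5-fold without 6SA Ngn3-Pdx1-MafA replicate 2 and 66.1-fold without WT Ngn3-MafA replicate 2 (24.5 ± 22 CPM, SD, n = 5, against 0.656 ± 0.835 CPM, SD, n = 6, log2 fold change 5.01 ± 1.08, adjusted p = 0.0162). Sstr1 was at least 16.1-fold higher (5.47 ± 4.94 CPM, SD, n = 5, against 0.0709 ± 0.111 CPM, SD, n = 6, log2 fold change 5.70 ± 1.34, adjusted p = 0.0283). Gpr119 was at least 43.1-fold lower, or 20.7-fold without WT Ngn3-MafA replicate 2 (0.0943 ± 0.0871 CPM, SD, n = 5, against 13.3 ± 17.7 CPM, SD, n = 6, log2 fold change -6.77 ± 1.71, adjusted p = 0.0396). Since 6SA Ngn3-Pdx1-MafA had no passage 5 sample, the comparison was repeated within passage 2, where all 3 were called (4.69, 5.46 and -7.16 on the log2 scale, adjusted p = 0.0133, 0.0399 and 0.00776). The call of Galr1 held in all 21 other settings (highest adjusted p = 0.0465), that of Sstr1 was lost in 7 and that of Gpr119 in 9 of them, for the most part when 1 sample was left out (highest adjusted p = 0.0927 and 0.188).

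Adding MafA to Ngn3-Pdx1 called none of the receptors, where 1.88% of genes were called. By edgeR 3 had an unadjusted p under 0.05, and DESeq2 called none. Gpr119 had a log2 fold change of -4.98 ± 1.57 (adjusted p = 0.120), Sstr2 of 1.36 ± 0.62 (adjusted p = 0.286) and Galr1 of 2.02 ± 0.95 (adjusted p = 0.316). EdgeR called Gpr119 at passage 2 alone (adjusted p = 0.0437) and with a replicate block (adjusted p = 0.0334). It also called Gpr119 without the gene filter (adjusted p = 4.1e-04). Limma called Sstr1 (adjusted p = 0.00772) and Galr1 (1.83 ± 0.49, adjusted p = 0.0316). Ngn3-Pdx1 against Ngn3-MafA called none of the receptors either, and 0.133% of genes; the 2 with an unadjusted p under 0.05 in edgeR were Galr1 (3.00 ± 0.98, adjusted p = 0.331) and Sstr1 (3.55 ± 1.23, adjusted p = 0.367), and DESeq2 called none. Between 6SA and WT Ngn3, 0% of genes and none of the receptors were called by edgeR, and no receptor by DESeq2. In edgeR, Sstr2 alone passed an unadjusted threshold of 0.05; in limma, Sstr1, Sstr2 and Ffar1 did, with no adjusted p under 0.05. Sstr2 stood at 53.1 ± 37.0 CPM with 6SA (SD, n = 8) and at 15.9 ± 12.5 CPM with WT (SD, n = 9), a log2 fold change of 1.92 ± 0.50 (adjusted p = 0.780 in edgeR and 0.0725 in DESeq2). Without Ngn3 it stood at 9.77 ± 5.39 CPM (SD, n = 8) in 6SA cultures and at 7.23 ± 5.15 CPM (SD, n = 7) in WT cultures. The difference in the Ngn3 effect between 6SA and WT cultures called 0% of genes, none of the 4 receptors that could be fitted by edgeR (none with an unadjusted p under 0.05) and none by DESeq2.

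When the 12 conditions were ordered by the mean of each receptor, neighbours in the order overlapped in their ranges for nearly all steps. The values of Ffar1 in WT Ngn3-Pdx1-MafA and in 6SA Pdx1-MafA, its next condition, did not overlap, but came down to 2 reads against 1. The steps without overlap of values over 3 reads were Galr1 from 6SA (45.6 CPM) to WT Ngn3-Pdx1-MafA (10.4 CPM) and Sstr1 from 6SA (9.92 CPM) to WT Ngn3-Pdx1-MafA (2.5 CPM). Both compare 2 samples at passage 2 with 3 samples of which 1 was at passage 5. They were picked after ordering by mean, and how often other genes separate in this way was not counted. Between 6SA and WT Ngn3, edgeR called 0% of all genes. At passage 2 alone the lower of the 6SA values, 33.2 CPM for Galr1 and 7.60 CPM for Sstr1, still lay above the higher WT values of 16 and 6.24 CPM.

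Among cells with Ngn3, all 10 receptors had lower means at passage 5. In the 5 passage 5 samples with Ngn3 the summed endocrine markers stood at 1437 to 11685 CPM, against 5785 to 39690 CPM in the 12 at passage 2, and Neurog3 at 7.87 to 38.8 CPM against 34.9 to 329 CPM. The 6SA Ngn3-Pdx1-MafA condition, with the highest means of Galr1 and Sstr1, had no sample at passage 5. The receptor means at passage 5 and passage 2 were 1.85 and 10.4 CPM for Gipr, 1.13 and 12.7 CPM for Galr1, 1.38 and 8.03 CPM for Gpr119, 8.37 and 43.9 CPM for Sstr2, 3.36 and 7.71 CPM for Ffar1 and 4.27 and 7.28 CPM for Adra2a. For Sstr1 and Sstr3 they were 0.202 and 2.84 CPM and 1.15 and 3.89 CPM. For Gcgr and Glp1r they were 0.0266 and 0.312 CPM and 0.0532 and 0.284 CPM. Sstr2 at passage 5, 4.76 to 15.1 CPM, lay within its range without Ngn3. Some passage 5 samples were high all the same, with Ffar1 at 14.8 CPM in 6SA Ngn3-Pdx1 and Adra2a at 11.6 CPM in WT Ngn3-Pdx1-MafA. At passage 2 alone all 8 receptors called over all backgrounds were again called, with log2 fold changes of 2.09 for Sstr2 to 8.42 for Ffar1. Without Ngn3 the means at passage 5 and passage 2 were 1.04 and 0.409 CPM for Gipr and 9.87 and 8.27 CPM for Sstr2. They went the other way for Adra2a (0.143 and 0.823 CPM) and Glp1r (0.791 and 1.07 CPM). Gipr was at 0 in 2 of these 3 passage 5 samples and at 3.13 CPM in the other. The part of passage in these levels was not tested.

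Pools of 50 cells from the same replicate could differ more than conditions did. Of the 8 replicates with Ngn3 that had more than 1 pool, Gpr119 was at 0 in a pool and over 3 reads in another in 2, Galr1 in 2, Ffar1 in 2, Glp1r in 2, Gcgr in 3 and Sstr3 in 1, whereas Gipr, Adra2a, Sstr1 and Sstr2 showed this in none. In 6SA Ngn3-Pdx1 replicate 1 the 3 pools held 192, 22 and 0 reads of Gpr119, beside 171, 214 and 126 reads of Gipr. In WT Ngn3-Pdx1-MafA replicate 1 they held 37, 29 and 0 reads of Ffar1, beside 34, 65 and 66 of Gipr and 61, 39 and 98 of Galr1. In 6SA Ngn3-Pdx1-MafA replicate 1 they held 79, 12 and 0 reads of Ffar1. Values of Gpr119 and Ffar1 in samples made of a single pool carry this spread.

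**Figure D3:**
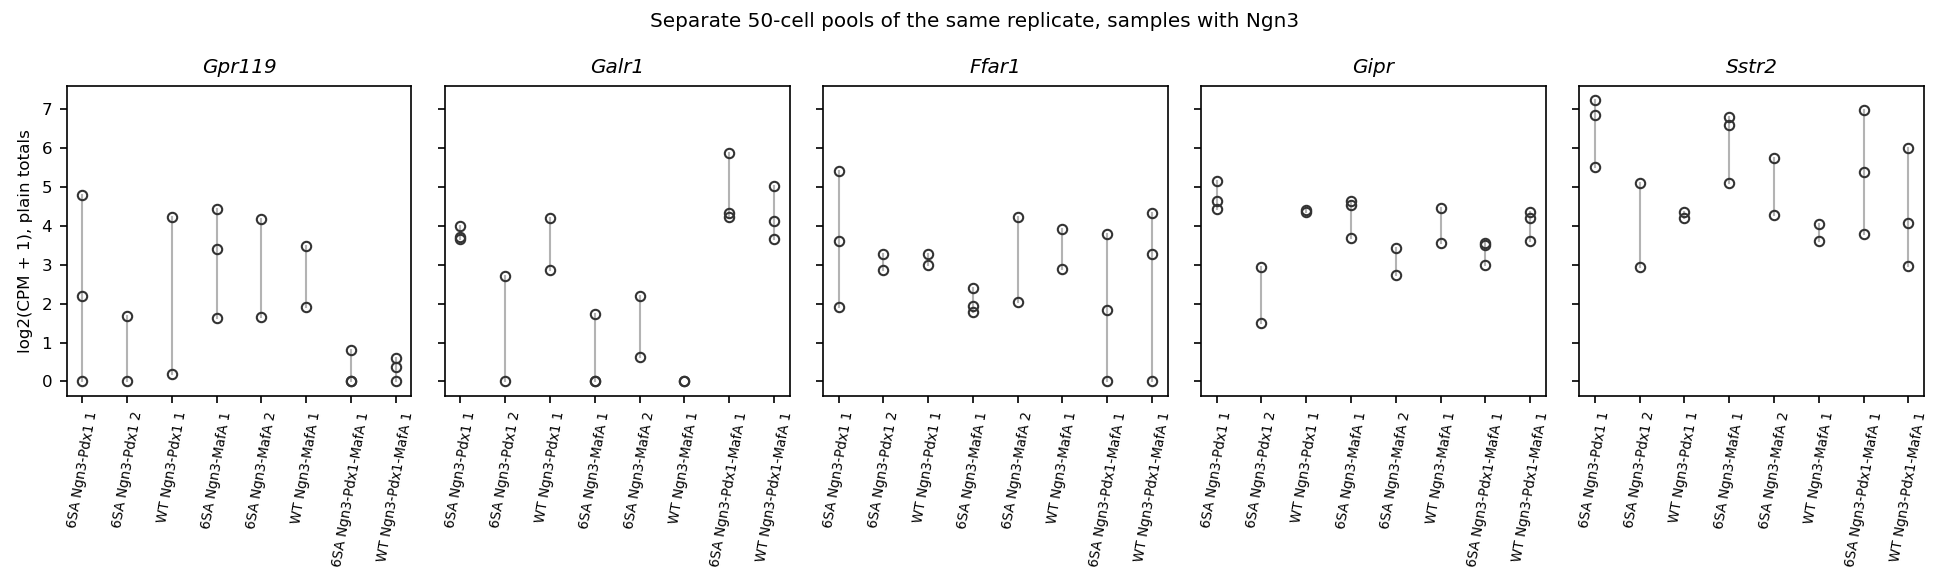
Level of 5 receptors in the separate pools of 50 cells of the 8 replicates with Ngn3 that had more than 1 pool, as log2(CPM + 1) on plain library totals, each circle a pool and each line the range within a replicate; circles can coincide at 0. Gipr stays above 0 in every pool, while Gpr119, Galr1 and Ffar1 reach 0 in some pools of a replicate and not in others.

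Among the 17 samples with Ngn3, Galr1 and Sstr1 varied together (Pearson r = 0.87 on log2(CPM + 1), and 0.90 over all 32 samples), as did Ffar1 and Gipr (r = 0.75), while Gpr119 and Galr1 did not (r = -0.30). These are descriptions of samples that share factor combinations, passage and the amount of endocrine transcript. By the same measure over 32 samples, the genes most like Galr1 were Grin3a (0.95), Agap2 (0.93) and Apba1 (0.93), and those most like Sstr1 were Naaladl1 (0.95), Nyap1 (0.94) and Myrip (0.92). The genes most like Gpr119 were Slc38a5 (0.88), Mboat4 (0.87), which acylates ghrelin, and Slc29a1 (0.82). Those most like Ffar1 were Dbpht2 (0.91), Unc5a (0.88) and Rab37 (0.88), and those most like Gipr were Rab37 (0.92), Cacng4 (0.91) and Gjd2 (0.90), which encodes the gap junction protein of beta cells. Sstr2 was closest to Tpst2 (0.91), Apbb1 (0.89) and Pld3 (0.89), Sstr3 to Gm42710 (0.88), Fam92b (0.87) and Kcnmb1 (0.86), and Adra2a to Kcnmb1 (0.86), Ids (0.86) and Gprin1 (0.85). Glp1r was closest to Themis3 (0.83), Muc13 (0.80), a mucin of epithelial surfaces, and Gm22532 (0.79). Gcgr had too few samples with reads for this measure.

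**Figure D4:**
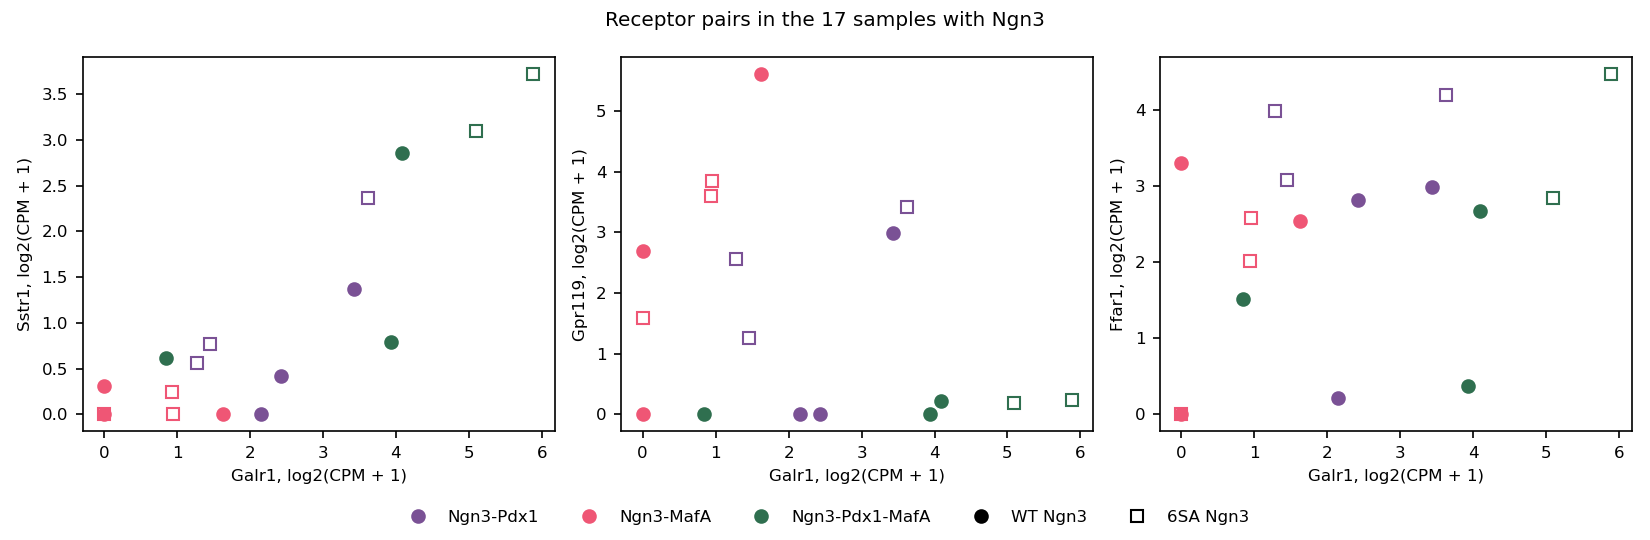
Sstr1, Gpr119 and Ffar1 against Galr1 in the 17 samples with Ngn3, as log2(CPM + 1), coloured by factor combination, with filled circles for WT and open squares for 6SA. Sstr1 rises with Galr1 (r = 0.87), Gpr119 is above 1 in 5 of 6 Ngn3-MafA samples and next to 0 in all 5 samples with all 3 factors, 4 of which have the highest Galr1, and Ffar1 is spread over all combinations.

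A fixed list of 12 peptide genes was also described. It holds ligands of these receptors and others, such as Ghrl and Iapp, that are not ligands of the 10. Of all genes, 21.5% were called and 11.1% called higher. Of the 12 peptide genes, 7 were called higher with Ngn3, none lower, 3 could not be fitted and 2 were not tested. Those with the lowest adjusted p were Ghrl (ghrelin, 1569 ± 1336 against 1.04 ± 0.668 CPM, log2 fold change 10.24), Gal (galanin, 2232 ± 4305 against 1.65 ± 1.08 CPM, 7.64), Sst (somatostatin, 6764 ± 8255 against 6.33 ± 7.97 CPM, 9.55), Gip (233 ± 433 against 0.174 ± 0.187 CPM, 7.79) and Iapp (amylin, 524 ± 564 against 4.33 ± 11.9 CPM, 7.07), each as mean ± SD over 17 and 15 samples. Gal, which encodes the ligand of Galr1, had its highest mean in the same combination as the receptor: 6978 ± 5786 CPM with all 3 factors (SD, n = 5), 478 ± 706 CPM with Ngn3-MafA (SD, n = 6) and 29.7 ± 35.6 CPM with Ngn3-Pdx1 (SD, n = 6). Galr1 in turn was at 24.5, 0.656 and 5.35 CPM, so the order of the last 2 combinations was not the same. Adding Pdx1 to Ngn3-MafA raised Gal (log2 fold change 4.61, adjusted p = 0.0225), Gip (8.28, adjusted p = 0.00180) and Iapp (5.63, adjusted p = 0.0243) and lowered Gcg, the glucagon gene, from 134 ± 209 CPM (SD, n = 6) to 0 in 5 samples (adjusted p = 0.0225). Adding MafA to Ngn3-Pdx1 raised Gal (8.33, adjusted p = 6.4e-04). The median fitted log2 fold change with Ngn3 was 7.79 over the 7 listed peptide genes that could be fitted, beside 0.02 for all genes.

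Of 35 other G-protein-coupled receptors of islets that were tested, 11 were higher with Ngn3, 3 were lower and 9 could not be fitted, with a median of 1.36 over those fitted beside 0.02 for all genes, of which 11.1% were called higher and 21.5% called. Ffar2, a receptor for short-chain fatty acids, rose (71.0 ± 60.8 against 0.0761 ± 0.143 CPM, adjusted p = 1.5e-10). Oxtr, the oxytocin receptor (18.4 against 0.0137 CPM, at least 42.8-fold higher), Casr, the calcium-sensing receptor (8.22 against 0.0269 CPM, at least 19.1-fold higher), Gabbr2, a GABA-B receptor subunit (15.2 against 0.311 CPM, 5.95 on the log2 scale), and Adora2a, an adenosine receptor (8.29 against 0.549 CPM, 5.24), rose as well. Lower with Ngn3 were Adora1, the Gi-coupled adenosine receptor (2.58 against 9.80 CPM, -2.61, adjusted p = 4.3e-04), P2ry1, an ADP receptor (6.02 against 18.9 CPM, -1.86, adjusted p = 9.9e-04), and Gpr39, a zinc-sensing receptor (9.66 against 17.6 CPM, -1.01, adjusted p = 0.0187).

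Downstream of the receptors, the cyclic AMP list had 9 genes higher and 2 lower of 31 tested, with 1 not fitted and a median of 0.15 beside 0.02 for all genes, of which 11.1% were called higher and 21.5% called. Rapgef4, the cyclic AMP sensor Epac2 of beta cells (79.2 against 0.148 CPM, 8.86, adjusted p = 2.2e-10), Pde1c, a calcium-dependent phosphodiesterase (48.0 against 1.14 CPM, 6.45), Prkar1b, a regulatory subunit of protein kinase A (64.7 against 4.25 CPM, 3.46), Rapgef3 (23.4 against 4.74 CPM, 2.13) and the adenylyl cyclase Adcy9 (15.6 against 2.66 CPM, 2.51) rose. The cyclic AMP phosphodiesterase Pde4b (36.6 against 64.2 CPM, -1.02) and the kinase Sik1 (18.3 against 33.8 CPM, -0.97) fell. Of 18 Gi/o and Gq signalling genes tested, 6 were higher, 2 lower and 2 could not be fitted, with a median of 0.09 over those fitted, beside the same 0.02, 11.1% and 21.5% for all genes. Gnao1, the alpha subunit of Go (44.2 against 0.166 CPM, 8.37, adjusted p = 1.0e-08), Gnaz (23.4 against 3.27 CPM, 2.56), Prkce (35.9 against 8.06 CPM, 2.14), the phospholipase Plcb4 (38.5 against 9.03 CPM, 2.04) and the IP3 receptor Itpr1 (65.2 against 35.8 CPM, 0.86) rose, while Plcb3 (25.5 against 35.9 CPM, -0.55) and Gnai3 (199 against 261 CPM, -0.44) fell. Of 12 genes for receptor desensitisation and trafficking, 5 were higher and 2 lower, with a median of 0.56, beside the same 0.02, 11.1% and 21.5% for all genes. These were Ramp1 (109 against 13.8 CPM, 2.70, adjusted p = 1.8e-08), Ramp2 (0.635 CPM against 0, at least 1.47-fold higher), Grk2 (68.0 against 37.6 CPM, 0.87), Grk3 (22.7 against 8.29 CPM, 1.42) and Grk5 (7.45 against 3.35 CPM, 1.22), and on the lower side the beta-arrestin Arrb1 (2.74 against 9.27 CPM, -2.46, adjusted p = 0.00186) and Ramp3 (21.4 against 63.0 CPM, -1.56, adjusted p = 0.00714).

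On GRCm38, Ffar1 lies at chr7:30857390-30861564 and Gipr at chr7:19156061-19166127, both on the minus strand. Adra2a lies at chr19:54044151-54048982 on the plus strand. Ffar1 and Adra2a are annotated as single exons. Glp1r lies at chr17:30901817-30940791 (plus), Gcgr at chr11:120530699-120538986 (plus), Gpr119 at chrX:48667979-48674478 (minus), Sstr1 at chr12:58211772-58214444 (plus), Sstr2 at chr11:113619342-113626028 (plus) and Sstr3 at chr15:78537008-78544685 (minus). Galr1 lies on chromosome 18, on the minus strand. Sstr2 overlaps Slc39a11, and Glp1r and Gcgr overlap antisense or non-coding genes, all on the other strand and with 0 exon bases shared. All are protein-coding.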

How the data were processed

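RNA was measured by RNA-seq in pools of 50 sorted cells. The deposited values are whole-number counts of reads per gene: per the labels and the methods of the study, single-end reads were aligned by the authors with GSNAP to mm10, and counted with HTSeq (0.5.3p3) on Ensembl 81 genes. Whether counting used strand is not given in the sources used here. Lines for reads of no gene held 18.2% to 42.9% of each library and, with 92 spike-ins, stayed out of library sizes and tests.

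Groups were taken from the labels. Libraries with at most 1000000 gene counts (3 of 61) were left out, and repeat pools of a replicate were summed (32 samples). The tests covered the 24004 genes seen in 5 or more libraries whose log2 CPM varied (variance over 0.001). Counts were fitted with edgeR 4.0.16 (R 4.3.3, TMM, quasi-likelihood test, 1 mean per condition, no replicate block), and p-values were adjusted by Benjamini-Hochberg over all genes tested. A contrast with conditions at no count on both sides has no estimate, and was marked as not fitted (5114 genes for Ngn3 over all backgrounds). DESeq2 1.42.0, other scalings, filters and samples, a replicate block and, added after seeing the data, limma 3.58.1 on log2(CPM + 1) were alternatives. The steps were tested on simulated data. Tables were made with python 3.11.15 and pandas 2.3.3.

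All 10 receptors were described. From each pathway list up to 5 genes higher and 5 lower with the lowest adjusted p for Ngn3 over all backgrounds were named, and for each receptor with at least 10 reads in at least 5 samples the 3 tested genes with the highest correlation. The receptors, lists and tests were chosen with earlier results of these data known. Genome coordinates are those of GRCm38, and promoter sequences those of RefSeq.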

Additional observations from a re-analysis of the deposited data

Results flagged for a closer look

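Galr1 and Sstr1 were flagged because the effect of Ngn3 on them differed between the backgrounds of Pdx1, MafA and both in limma on log2(CPM + 1), the alternative added after seeing the data (adjusted p = 0.0324 for each). In limma the Ngn3 effect on Galr1 was 2.38, 0.57 and 4.22 on the log2 scale in those backgrounds, and on Sstr1 0.92, -0.00 and 2.42. EdgeR could not fit this difference in full for either gene, and DESeq2 did not call it (adjusted p = 0.379 for Galr1 and 0.284 for Sstr1).

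The 3 libraries left out for depth, all with Ngn3, Pdx1 and MafA, were flagged because receptors in them exceeded 3 counts and every sample without Ngn3, in CPM on plain totals. The library of WT replicate 2 had Galr1 at 30.4 CPM (19 reads), Sstr1 at 17.6 CPM (11 reads) and Adra2a at 6.39 CPM (4 reads). That of 6SA replicate 2 had Ffar1 at 45.5 CPM (11 reads), Galr1 at 37.3 CPM (9 reads) and Sstr2 at 24.8 CPM (6 reads). That of 6SA replicate 3, the one passage 5 library of its condition, had Sstr1 at 22 CPM (9 reads), Adra2a at 12.2 CPM (5 reads) and Galr1 at 9.79 CPM (4 reads). Gpr119 had no read in any of them, where 3 reads would be 4.80 to 12.4 CPM. No group had more than 3 samples, so no sample was tested for standing apart from its group.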

How the results depend on the processing

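Over all backgrounds, none of the fold changes of the 10 receptors reversed under any alternative, and 411 values kept their side of the threshold. Of the 9 that did not, 1 was Gpr119 without edgeR's legacy dispersion (adjusted p = 0.0912). In the other 8 a condition with Ngn3 was left at no count and the contrast could not be fitted: Gpr119 without replicate 1 of WT Ngn3-Pdx1 or WT Ngn3-Pdx1-MafA, Sstr1 without replicate 1 of WT or 6SA Ngn3-MafA or with the first pools alone, Sstr3 without replicate 1 of WT Ngn3-MafA or 6SA Ngn3-Pdx1-MafA, and Galr1 without WT Ngn3-MafA replicate 2.

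Counts of receptors called moved as follows. For any difference, the count of 5 became 8 with DESeq2, without the gene filter, with the replicate block and without legacy dispersion. For Ngn3 joining Pdx1, the count of 2 became 5 with DESeq2, the replicate block, no legacy dispersion or passage 2 alone, and 7 without the gene filter. For Ngn3 joining MafA, 2 became 4 with DESeq2, 6 without the filter and 5 with the replicate block or passage 2 alone. With limma it became 1, and without legacy dispersion Gipr was called as well. For any difference, Gipr was also called at passage 2 alone. With the first pools alone, Gcgr lost its call for Ngn3 joining both, and Gpr119 for Pdx1 joining Ngn3-MafA. The Ngn3 effect differing between backgrounds went from 0 to 2 with limma, which called 134 of all genes against 8 by edgeR. For MafA joining Ngn3-Pdx1, 0 became 1 (Gpr119) without the filter, with the replicate block or at passage 2 alone, and 2 with limma. Without the filter 1 receptor was called for Ngn3-Pdx1 against Ngn3-MafA (Galr1) and 1 for 6SA against WT (Sstr2). The cause of these moves was not tested.

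With 1 sample left out at a time, the counts ranged from 4 to 6 for any difference, 6 to 8 for Ngn3 over all backgrounds, 0 to 2 when it joined Pdx1 (0 without any of the 4 Pdx1 samples), 0 to 3 when it joined MafA (0 without WT MafA replicate 1 or 2), 5 to 8 when it joined both (5 without 6SA Ngn3-Pdx1-MafA replicate 1) and 1 to 3 for Pdx1 joining Ngn3-MafA; for the other comparisons they stayed at 0 to 0. A lone remaining sample was assumed to vary like the other groups.

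Over all genes, the replicate block called 3211 genes for any difference against 1729 without it. It called 1011 against 358 when Ngn3 joined Pdx1 and 2123 against 1121 when Ngn3 joined MafA. DESeq2 called 3328, 911 and 1928, edgeR without the gene filter 4446, 1273 and 2077, and without legacy dispersion 2948, 684 and 1338. Passage 2 alone gave 1700, 696 and 1115, and limma 2127, 433 and 1137. When MafA joined Ngn3-Pdx1, 451 genes became 1454 without the filter, 1188 with the block, 658 at passage 2 and 1030 with limma. Without the filter, 634 against 32 genes were called for Ngn3-Pdx1 against Ngn3-MafA, and 239 against 0 for 6SA against WT. The 14 pairs of samples with the same replicate number deviated from their condition means with correlations of -0.423 to 0.756 (median 0.348, 12 over 0.1), and 28 pairs with different numbers with -0.756 to 0.564 (median -0.172). As not every pair was over 0.1, the numbers were not taken to pair samples.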
